A study of Drosophila melanogaster with 4 samples.

Results

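Frost (Fst) is a gene of Drosophila melanogaster named for the rise of its transcript while flies recover from cold. It was followed here as 1 of 6793 named genes on cDNA arrays of the 12k design, through the 2 of 27648 spots whose only gene symbol in the platform's annotation is Fst. The RNA came from whole adult males of the strain dp cn bw cl, aged 6 to 7 days after eclosion. Treated males spent 2 h at 0 ± 0.5 °C and then 30 min at 25 °C, while co-reared control males stayed at 25 °C. Each of 3 arrays compared an independent pair of treated and control RNA, with cold-shocked RNA in Cy5 and untreated RNA in Cy3. A pilot array of the 7k design, on which 0 spots are named Fst, was not used here.

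Fst encodes a predicted secreted protein with proline-rich repeats that has been likened to mucins. Its transcript is known to build up after the return to warmth rather than during the cold itself, and it also responds to other stresses such as desiccation. Published work on flies with reduced or deleted Fst differs on whether the gene is needed for cold tolerance. In the Release 6 RefSeq gene table Fst lies inside the span of Dh44, which encodes a diuretic neuropeptide.

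The values are the authors' log ratios of the channels at each spot. They were taken as log2 rather than natural logs, because the lowest value on array 1 was −14.57. The natural log of the range of a 16-bit scanner is 11.09. That bound holds for raw intensities, while these ratios came from normalized data, so the base remains an assumption. A value above 0 is likely higher in the cold-shocked flies, since Cy5 over Cy3 and treated over control point the same way, but the labels do not state it. With 1 dye orientation, dye and treatment cannot be told apart. The SD of all spots was 0.729 on array 1, 0.457 on array 2 and 0.697 on array 3, and the array medians were −0.13, 0.03 and 0.03. Channel intensities were not analysed here, so the brightness of the Fst spots and the absolute level of the transcript are unknown, and in whole flies fewer cells of a type and less RNA per cell cannot be told apart.

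The Fst ratio lay above 0 at both spots on all 3 arrays. On array 1 the spots stood at log2 ratios of 0.89 and 1.37, on array 2 at 0.66 and 0.52, and on array 3 at 1.95 and 0.80. Averaged over its spots, Fst stood at 1.13 on array 1, 0.59 on array 2 and 1.38 on array 3. These correspond to ratios of 2.18, 1.505 and 2.60. Array 2 gave the lowest ratio for each spot, and the highest spot ratio came from array 3.

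**Figure D1:**
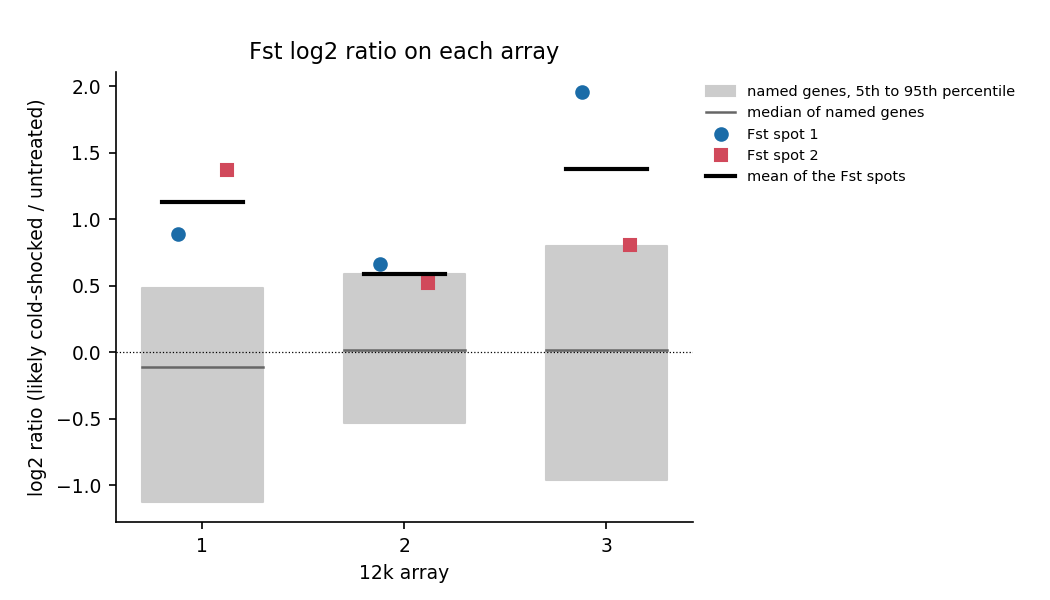
Log2 ratio of each Fst spot (circle, square) and their mean (black bar) on the 3 arrays of the 12k design, over the range from the 5th to the 95th percentile of named genes (grey) and their median (grey line). The Fst mean stands at 1.13, 0.59 and 1.38, well above the grey range on arrays 1 and 3 and at its upper edge on array 2.

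The mean log2 ratio of Fst was 1.03 ± 0.40 (SD, n = 3 arrays), a ratio of 2.04 that is likely cold-shocked over untreated. With the direction turned it would be 0.489. The 95% interval of the mean from limma's moderated variance ran from 0.44 to 1.63, or from 1.35-fold to 3.09-fold. The unadjusted p was 0.00455. Over all 19325 features tested the limma adjusted p was 0.853, so Fst did not pass. Of these features 0 passed (0%), and 924 had an unadjusted p under 0.05 (4.78%), of which 287 were higher (1.49%). Among named genes, 62 were under that p and higher (0.913%). By p in either direction, Fst ranked 14 of 6793 named genes and 39 of all 19325 features. An exact sign-flip permutation test over the 3 arrays, two-sided, gave p = 0.25, the smallest that 3 arrays allow.

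Fst was among the highest ratios of 6793 named genes on arrays 1 and 3 and less so on array 2. It ranked 44 on array 1, 336 on array 2 and 40 on array 3, so that 0.633%, 4.93% and 0.574% of named genes were higher. In units of each array's SD over all spots its ratio was 1.55, 1.29 and 1.98. Array 2 had the narrowest spread of the 3 arrays, and Fst was lowest there by ratio, by rank and in SD units. A ratio above 0 on all 3 arrays was shared by 852 named genes (12.5%).

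No named gene stood above Fst on all 3 arrays (0 genes), and 13 did so on 2 of them. By the mean over arrays Fst ranked 15. Of the 14 genes with a higher mean, 9 were above 0 on all 3 arrays and 5 had mixed signs. In 10 of the 14, a log2 difference above 2 separated the gene's own spots on at least 1 array, against 4.83% of all named genes. The other 4 were Rrp4, which stood at 5.08 on array 1 and at 0.12 and 0.21 on the others, and CG5550, CG10912 and CG8778. The last 3 were above Fst by their lowest array too.

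Ordered by the lowest of the 3 arrays, Fst ranked 5, after CG5550, CG8778, ghi and CG10912. These 5 genes were the named ones past a fold of 1.5 upward on every array (0.0736% of named genes). Over all 19325 features, unnamed spots included, 33 were past it (0.171%). Fst met that limit narrowly, since its 0.59 on array 2 exceeds the log2 of 1.5 by 0.00486. The next gene in that order, CG9568, had a lowest array of 0.57. Spot 2 of Fst alone, at 0.52 on array 2, lay below the limit.

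The repeat spots of Fst agreed closely on array 2 and less on array 3. They differed by 0.48 on array 1, 0.14 on array 2 and 1.15 on array 3, where the median difference within 7558 printed pairs of one gene was 0.32, 0.34 and 0.39. Of those pairs 33.04%, 78.0% and 8.49% differed more than Fst did. Spot 1 alone had a mean of 1.17 ± 0.69 and spot 2 alone one of 0.90 ± 0.43 (SD, n = 3 arrays). Taken as features of their own, neither passed, and limma's adjusted p was 0.858 for both.

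The Fst pair sits at positions 15 and 16 of the spot order. Spot values correlated at a distance of 24 positions, with a rank correlation of 0.319, 0.199 and 0.341 across the spots of arrays 1 to 3, and at 23 positions with 0.274, 0.0541 and 0.206. Neighbouring spots share position on the slide, so these are not independent points. Rows of 24 positions were inferred from this, which puts Fst in the first row. The other 22 spots of that row had a median log2 ratio of −0.62 on array 1, 0.44 on array 2 and 0.30 on array 3.

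Against its own row, Fst stood out on arrays 1 and 3 and not on array 2. On array 1, 0 of the 22 other spots were as high as either Fst spot, and their highest was 0.0455. On array 3, 0 were above spot 1 and 1 was above spot 2. On array 2, 6 were above spot 1 and 8 above spot 2, and their highest was 2.69. The mean of the Fst spots exceeded the median of the row by 1.75, 0.15 and 1.07.

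**Figure D2:**
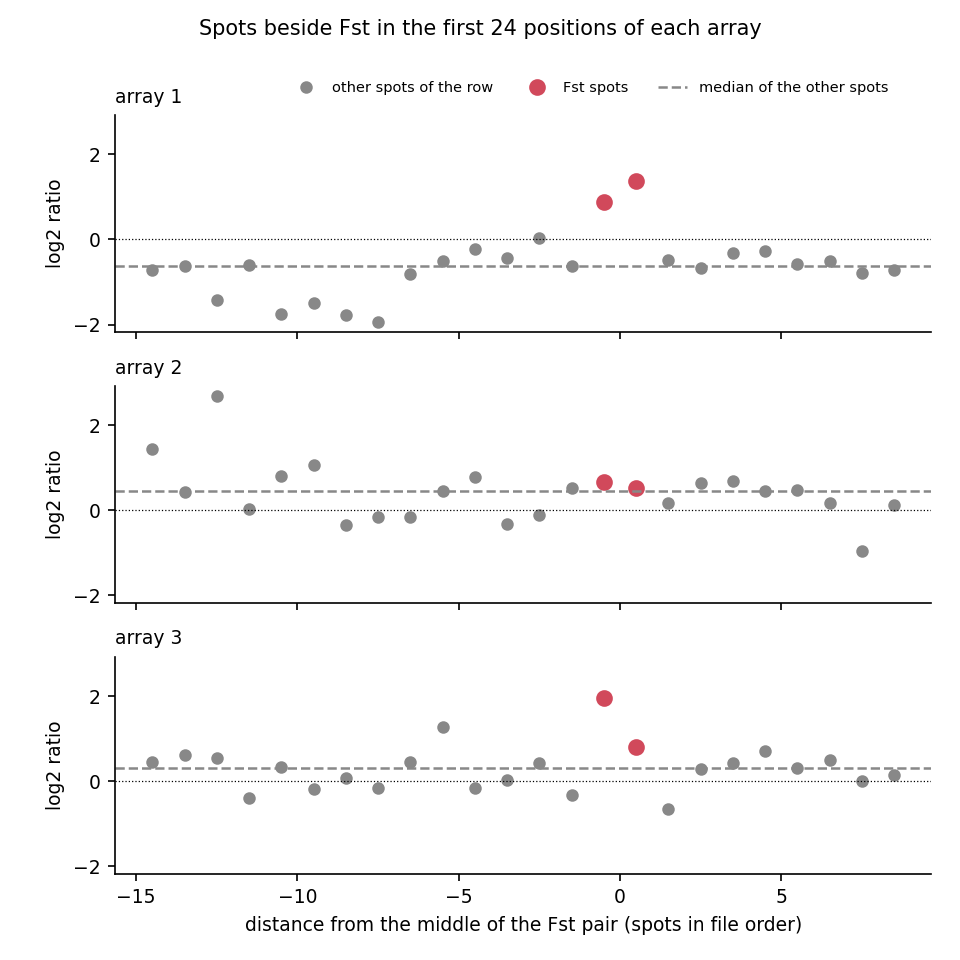
Log2 ratio of the spots in the first 24 positions of the spot order on each array, against their distance from the middle of the Fst pair; red points are the Fst spots, grey points the other 22 spots and the dashed line their median. The Fst spots lie above all other spots of the row on array 1, among them on array 2, and on array 3 one of them lies above all.

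Subtraction of local medians made the Fst ratio less even over the arrays without lowering its mean. The running median was taken over up to 50 spots on either side, but only 14 spots precede the Fst pair, so its windows held 65 and 66 spots and lay mostly after it. With this median subtracted, Fst stood at 1.84 on array 1, 0.26 on array 2 and 1.24 on array 3, with a mean of 1.12 ± 0.80 (SD, n = 3). With the median of nearby spots in the same inferred block subtracted, a setting chosen after seeing the data, it stood at 1.60, 0.42 and 1.16, with a mean of 1.06 ± 0.60. On array 2 its rank among named genes went from 336 to 1329 with the running median and to 681 with the block neighbourhood. Ordered by the lowest array, its rank of 5 became 117 and 22. The fold of 1.5 on all 3 arrays was no longer met in either setting, nor with array medians subtracted, where array 2 stood at 0.56.

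The other 4 genes past that fold remained past it under the same subtraction. With the running median subtracted, the lowest array of CG5550 stood at 1.205, that of CG10912 at 1.27, that of CG8778 at 0.96 and that of ghi at 0.89. With the block neighbourhood subtracted, all 4 were likewise past a fold of 1.5 on every array. As deposited, CG5550 had a mean of 1.35 ± 0.08, CG10912 one of 1.25 ± 0.35, CG8778 one of 1.21 ± 0.26 and ghi one of 1.00 ± 0.10 (SD, n = 3). The Fst mean lay between those of CG8778 and ghi, and its SD was the largest of these 5 genes.

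**Figure D3:**
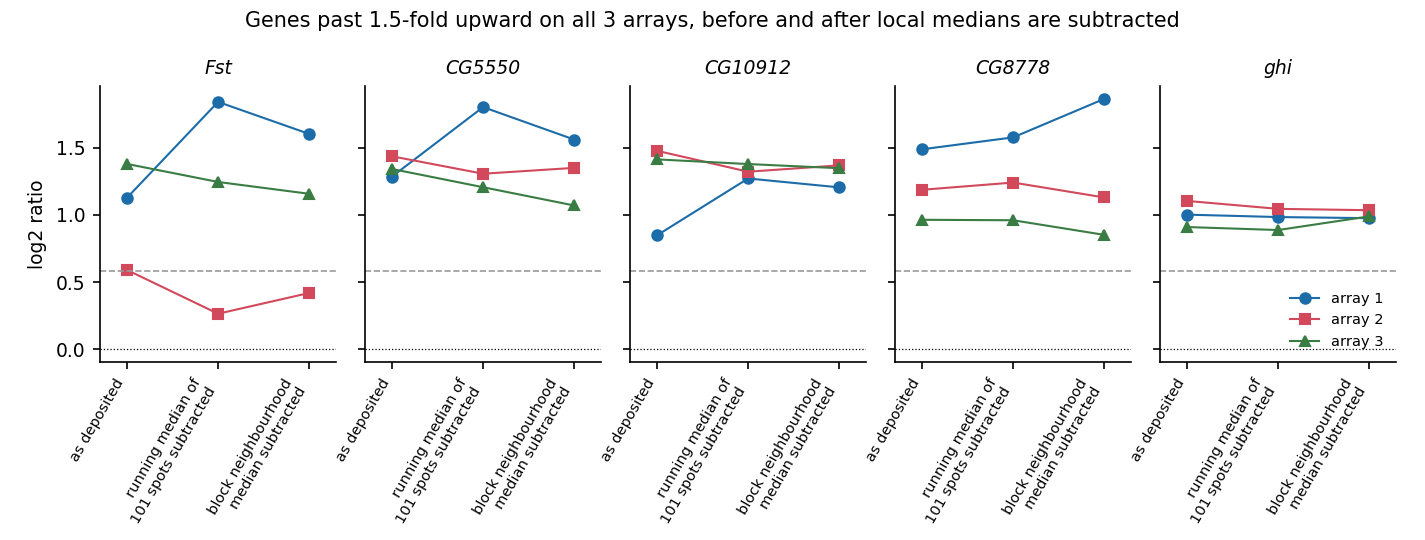
Log2 ratio on arrays 1 to 3 (symbols) of the 5 named genes past a fold of 1.5 upward on every array, as deposited and after each way of subtracting local medians; the dashed line marks a fold of 1.5 and the dotted line 0. Fst falls below the dashed line on array 2 after subtraction, to 0.26 and 0.42, while the other 4 genes stay above it on every array.

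The genes next to Fst in the order of mean ratios were taken for their nearness to its mean, and their differences from it were not tested. The 5 above were CG8778, CG10912, CG6497, CG3632 and CG13359, and the 5 below were CG10383, CG14856, CG13111, ghi and CG13510, with means from 1.00 to 1.29. The range over the arrays overlapped that of Fst for all 10, as this choice largely fixes. Of the 10, 4 had mixed signs. CG6497 stood at 3.85 on array 1 but at −0.24 and 0.17 on arrays 2 and 3, and its spots differed by 7.07 on array 1. CG3632 stood at 3.33 on array 3 and at 0.0067 and 0.51 on arrays 1 and 2.

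The 8 named genes whose 3 ratios lay closest to those of Fst were CG10383, CG18609, mbf1, CG15745, Ubi-p63E, Irp-1A, Sou and CG3124. Likeness was the root mean square difference over the 3 arrays, which was 0.0758 for CG10383 and 0.385 for CG3124, with a median of 1.18 over all named genes. All 8 were above 0 on every array, as the choice largely fixes. CG10383 stood at 1.12, 0.48 and 1.46, and CG18609 at 0.89, 0.53 and 1.53. The gene mbf1, which encodes a transcriptional coactivator, stood at 0.55, 0.66 and 1.38.

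Ubi-p63E, a polyubiquitin gene, stood at 0.82, 0.09 and 1.37, so that it was near 0 on array 2. Irp-1A, which encodes an iron regulatory protein, stood at 0.60, 0.56 and 1.08. CG15745, Sou and CG3124 had means of 0.76, 0.74 and 0.72. With the running median subtracted 7 of the 8 were above 0 on every array, and Ubi-p63E was at −0.03 on array 2. None of the 8 passed the limma test over all features.

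Of the cold list, genes tied to cold in earlier work, all 5 were measured, and 0 passed the test. Fst and CG10912 were above 0 on all 3 arrays, CG12164 was below 0 on all 3, and 2 had mixed signs. CG10912 stood at 0.85, 1.48 and 1.41, lower than Fst on array 1 and higher on array 2. The gene smp-30, related to the calcium-binding protein regucalcin, stood at −0.42, −0.09 and 0.01. CG12164 had a mean of −0.34 ± 0.27 and CG16743 one of −0.71 ± 0.90 (SD, n = 3). The median of the list's means was −0.17, or −0.25 without Fst, beside −0.05 over all named genes.

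Of 19 heat shock genes 6 were measured, and 0 passed the test. Measured here means a spot with that gene's symbol alone. The 102 spots with several symbols were counted for no gene, so any heat shock genes with only such spots are left out. Hsp26, stv and Hsf were above 0 on all 3 arrays, as were 12.5% of all named genes, and 3 members had mixed signs. Hsp68, an inducible Hsp70-type chaperone, stood at 1.82, 0.73 and −0.07 on arrays 1 to 3. The small heat shock protein gene Hsp26 stood at 1.37, 0.93 and 0.15. Fst was the higher on array 3, and Hsp68 and Hsp26 were the higher on arrays 1 and 2.

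The co-chaperone gene stv stood at 0.68, 0.55 and 0.42, and Hsf, which encodes the heat shock transcription factor, at 0.08, 0.19 and 0.22. DnaJ-1, another co-chaperone gene, had a mean of −0.16, and the small heat shock protein gene l(2)efl one of −0.36. The DnaJ-1 value averages 16 spots, whose log2 ratios spanned 3.30, 2.36 and 3.12 on arrays 1 to 3. No measured member of the list had a mean above that of Fst (0 of 6). The median of the list's means was 0.36, beside −0.05 over all named genes.

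**Figure D4:**
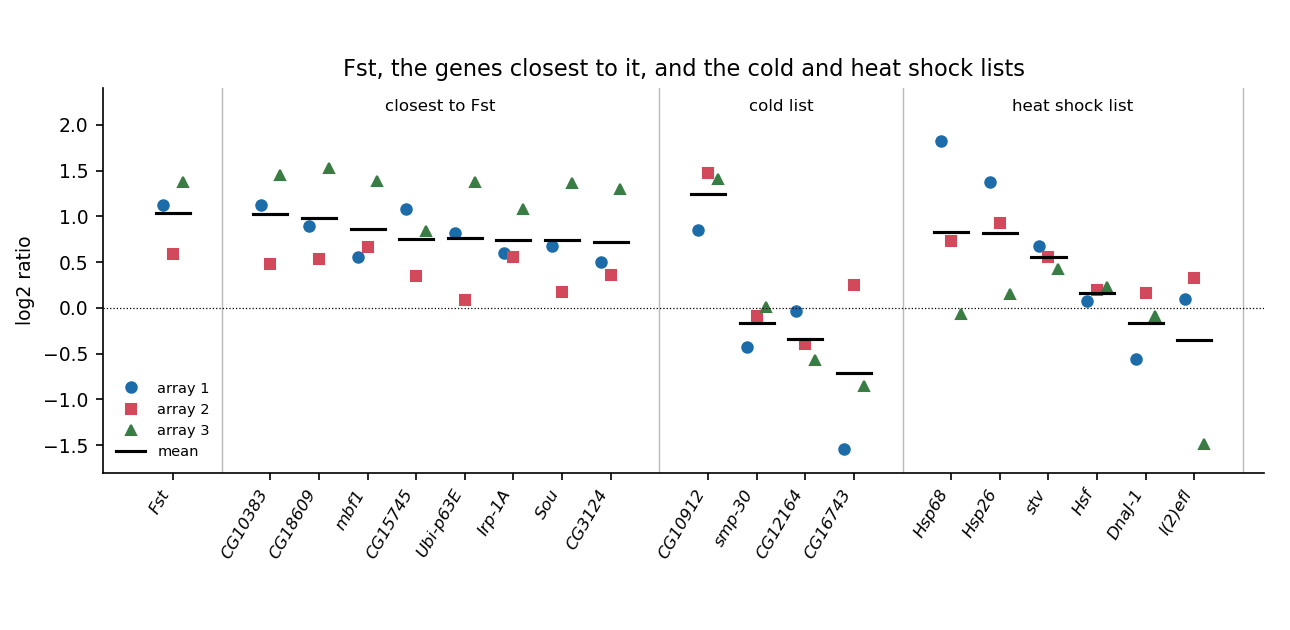
Log2 ratio on arrays 1 to 3 (symbols) and their mean (bar) for Fst, the 8 named genes closest to it over the 3 arrays, and the other measured members of the cold and heat shock lists. Hsp68 and Hsp26 are highest on array 1 and lowest on array 3, where Fst is highest, and CG10912 is the one other cold gene above 0 on every array.

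Early response genes of the JNK pathway and related factors were measured for 6 of 17 members, of which 4 were above 0 on all 3 arrays, 0 below and 2 mixed, with 0 past the test. Over all named genes 12.5% were above 0 on all 3 arrays and 16.9% below. Mean ratios were 0.72 ± 0.37 for kay, the Drosophila Fos gene, 0.68 ± 0.28 for CG14186 and 0.37 ± 0.19 for Ets21C, which encodes an ETS transcription factor (SD, n = 3). The mixed members were puc, with a mean of −0.17, and Gadd45, with one of −0.15. The median of the list's means was 0.30, beside −0.05 over all named genes. This list, like the others, was chosen with earlier results of these data known. Its counts are a description and not independent support. As with Fst, kay and CG14186 had their lowest value on array 2, at 0.35 and 0.37. With the running median subtracted Ets21C was at 0.15.

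Of the genes whose products resemble Fst in being secreted or mucin-like, too few were measured for their counts to be likened to those over all named genes. Of 26 mucin and mucin-related genes 7 were measured, 0 were above 0 on all 3 arrays, 1 was below on all 3 and 6 had mixed signs, with a median of 0.03. Over all named genes 12.5% were above 0 on all 3 arrays, 16.9% were below and the median was −0.05. Muc26B had a mean of −0.71 ± 0.50 (SD, n = 3), Mur18B one of 0.20 and Muc18B one of −0.19. Of 8 Turandot genes, a family of secreted stress proteins, 2 were measured. TotF stood below 0 on all 3 arrays with a mean of −0.47 ± 0.44, and TotB at −0.11 with mixed signs. The median of the Turandot means was −0.29.

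Of 13 genes of water balance and desiccation 7 were measured, with 1 above 0 on all 3 arrays, 1 below and 5 mixed. The mean was 0.44 ± 0.20 for Lkr, the leucokinin receptor gene, and −1.02 ± 0.46 for Drip, which encodes an aquaporin (SD, n = 3). Dh44-R1, a receptor for the product of Dh44, stood at −1.62, 0.01 and 0.55. In these 3 lists 0 measured members passed the test, and 0 had a mean above that of Fst.

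The measured genes around Fst in the genome had ratios like those of named genes in general. Of the gene that contains it and the 10 annotated genes on either side, 21 in all, 11 had named spots on the array, and Dh44 had none. Their mean log2 ratios ran from −0.45 to 0.39 with a median of −0.04. Of the 11, 2 were above 0 on all 3 arrays, 1 was below on all 3 and 8 had mixed signs, where all named genes gave 12.5% above, 16.9% below and a median of −0.05. Every one of the 11 had a lower value than Fst on each array.

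Scm, a Polycomb group gene and the nearest measured gene on one side, stood at −0.17, −0.47 and −0.67. Nepl12, a neprilysin-like gene and the nearest measured on the other, stood at 0.18, 0.25 and 0.73. Beyond it p23, a co-chaperone gene, had a mean of −0.44 ± 0.45, and on the Scm side SpdS, the spermidine synthase gene, had one of −0.45 ± 0.90 (SD, n = 3). P58IPK, which encodes a co-chaperone of the endoplasmic reticulum, stood at 0.17, 0.30 and 0.58.

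**Figure D5:**
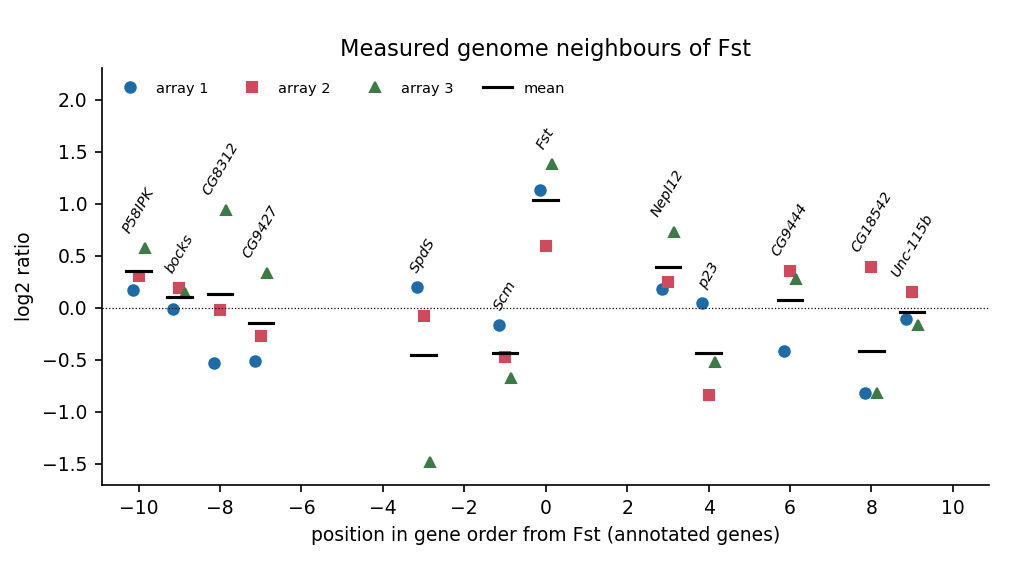
Log2 ratio on arrays 1 to 3 (symbols) and mean (bar) of Fst and of the 11 measured genes among the 10 annotated on either side of it, by their position in gene order. The means of the neighbours lie between −0.45 and 0.39, and the Fst mean at 1.03.

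Markers of female tissue, which whole males should largely lack, lay mostly below 0. Of 11 genes 9 were measured, 5 of them below 0 on all 3 arrays, 0 above and 4 mixed, and 0 passed the test. A ratio below 0 on all 3 arrays was found for 16.9% of named genes. The list's median was −0.88 on array 1, −0.45 on array 2 and −0.10 on array 3. The yolk protein gene Yp1 stood at −4.22, −2.32 and −1.40, and dhd, a thioredoxin gene of the germline, at −2.60, −2.78 and −1.75. Yp3 stood at −1.78, −0.80 and −0.38 and Yp2 at −2.06, −0.25 and −0.07, so that both were nearer to 0 on arrays 2 and 3. The mean of osk was −0.45, and among the mixed members those of yl and otu were −0.22 and −0.18 and those of swa and fs(1)N 0.16 and 0.25. Of 11 genes of the testis and male accessory gland 5 were measured and all had mixed signs, with a median of 0.14. The means were 0.32 for dj, 0.17 for Acp53Ea and 0.14 for Mst87F, which was at 0.59 with the running median subtracted. Those of betaTub85D and Acp36DE were −0.12 and −0.04. These ratios give no level, so the labelled sex could not be checked with them, and the part of female RNA in the Fst ratio was not tested.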

How the data were processed

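The deposited values were 1 log2 ratio per spot, which the authors derived from normalized data, per the labels. The sources used here give neither the image analysis, background correction, normalization and spot filters nor the log base and direction. Spots were named by the platform annotation: of 27648, 15116 had 1 symbol, 102 had several and 12430 had none. Gene identifiers of 14894 spots matched RefSeq's Release 6 table, 222 did not and kept the annotation's name. Spots of a gene were averaged, and every other spot was kept as its own feature, giving 19325 features with 0 missing values. A two-sided limma test (version 3.58.1, lmFit and eBayes, R 4.3.3) set each mean ratio against 0, and p-values were adjusted over all features by Benjamini-Hochberg, with a threshold of 0.05. The fit was checked on simulated data. Arrays are separate biological pairs, and their number limits the precision.

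The gene and the lists were chosen with earlier results of these data known. Besides Fst, the naming rule took the 8 genes closest to it, the 5 above and 5 below it by mean, measured members of the cold, heat shock and female lists, the 3 with the largest absolute mean of each other list, measured genome neighbours (some only plotted), and genes past a fold of 1.5 upward on every array. CG9568, Rrp4, puc, Gadd45, betaTub85D and Acp36DE were named after their values were seen. Other settings tried were the centring, scaling, local medians, spot averaging, features tested, robust and fold-limited tests and omission of each array. The block neighbourhood held spots within 3 rows and 6 columns in an inferred block of 24 by 24, without the printed pair itself. No spot named Fst is on the pilot array, so it was not added.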

Additional observations from a re-analysis of the deposited data

How the results depend on the processing

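The mean log2 ratio of Fst kept its direction and did not pass the limma test under any of 16 other settings, with adjusted p from 0.679 to 1.00. Only the centring, the scaling and the local or block medians could have turned that direction. Every Fst spot value was above 0, so omission of an array, single spots and spot averaging could not. The other tests, the named genes alone and the other log bases could not either, and the log bases left the p-value as it was. On the log2 scale the mean ran from 0.859 to 1.25, both extremes coming from the omission of an array, array 3 and array 2 respectively. Read as natural logs the values would give a fold of 2.81, and as log10 one of 10.8. The count of features past the test was 0 in every setting that was run, with 335 to 1323 features at an unadjusted p under 0.05, where the lowest came from limma's test against a fold of 1.2 and the highest from single spots as features. The 86 features past a fold of 1.5 on all 3 arrays numbered 450 when a fold of 1.3 was asked for, 7 when a fold of 2 was, 177 if each spot stood alone and 15 over named genes. Without one replicate they numbered 407 to 912, since 2 arrays sufficed. The rank of Fst by its mean, 15, was at most 25 in the other settings, except for 42 without replicate 3 and 44 and 74 of 15116 named spots for its spots taken singly. Of 610 values of the other genes chosen by the naming rule, 604 moved by less than 1 SD over the arrays and 6 moved by more. Omission of 1 of 3 arrays cannot move a mean by 1 SD, and testing named genes alone leaves it unchanged. That count was thus partly fixed in advance and does not measure stability. Without replicate 1 the mean of CG6497 went from 1.26 to −0.04 and that of CG13111 from 1.01 to −0.36, both counted as moving by less. The block neighbourhood and block medians were chosen after seeing the data. A filter on dim spots and other background corrections were not run, for want of intensities. The test is already paired, since every ratio compares 1 treated and control pair on 1 array, so no further replicate block could be added.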
